A study of Mus musculus with 18 samples.

Results

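The genes described here are 39 mouse genes that interferons switch on or that cut and carry peptides for antigen presentation, chosen from a list of names. Probes were found for 38 of the 39, out of 28919 genes or unnamed transcripts on the array, and Xaf1 had none. They were read in 9 RNA samples: 2 normal mammary glands, 2 NIC pools of 5 mammary tumours each, and 5 single mammary tumours of the genotype ErbB2 knock-in (KI). All samples came from female FVB/N mice, and RNA was taken from the whole flash-frozen gland or tumour. The labels do not spell out NIC. No label names the promoter or Cre line behind either tumour model, or the age of the mice. Every RNA sample shared an array with a commercial universal mouse RNA, on 2 Agilent arrays with exchanged dyes. A level is the log2 ratio of sample over reference, averaged over that dye pair, so that 0 means the level of the reference. Levels are therefore compared between samples and not between genes. The normal and NIC arrays lie in 1 value table and the KI arrays in another, so in every comparison with KI the table and the group cannot be told apart.

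Interferons are secreted proteins that warn cells of infection or damage. Type I interferons such as interferon beta bind the receptor chains Ifnar1 and Ifnar2, and the kinases Jak1 and Tyk2 then activate a complex with Stat2 and Irf9 that binds the interferon-stimulated response element (ISRE) of its targets. Interferon gamma, made by T and NK cells, acts on genes that carry the gamma-activated site (GAS), and raises the chemokines Cxcl9 and Cxcl10, the GTPases of the GBP and IRG families and the immunoproteasome. Many targets answer to both kinds of interferon. In mammary tumours such genes can be active in the tumour cells, in leukocytes and in stroma. In whole tissue, fewer cells of a type and less RNA per cell cannot be told apart.

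RefSeq promoter windows of assembly GRCm38.p6, which run from 250 bases before to 50 bases after a gene's start, were held for 29 of the 38 genes. Windows were not held for Usp18, Mx1, Mx2, Oas2, Dhx58, Ifi27l2a, Rtp4, Parp14 and Iigp1. The ISRE core was searched as GAAANNGAAA and the GAS core as TTCNNNGAA, on both strands, where N is any base. The ISRE core was present for 16 of the 29 genes (55.2%) and for 3.99% of all 27025 genes with a window. For the GAS core the numbers were 7 of 29 (24.1%) and 9.55%. Of the 5 GTPase genes with a window 4 held the ISRE core, of the 3 IFIT genes 2, of the 4 OAS genes 2, and of the 3 antigen-processing genes 0. In Bst2 the ISRE and GAS matches overlap. A match is only a run of letters, and a window without one says nothing of the factor.

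The windows of Irf7, Irf9, Oasl1, Ifi44, Ifi47, Cxcl9 and Tap1, genes that were called below, held neither core. The following stretches, 5′ to 3′ on the strand of the gene and all before its start, were chosen among the genes with a match. Capitals mark the ISRE core in either orientation in the first 5 and the GAS core in the last 2. Isg15 and Oas1a were called higher than gland in both NIC and KI and Ifit1 in NIC, Cxcl10 and Gbp2 were high in KI tumours 1 and 3, and Irf1 and Psmb8 stand for the GAS core. The Isg15 matches, 3 in number, overlap one another and lie 78 to 66 bases before the start (chr4:156200850-156200921, minus strand). Those of Oas1a lie 20 and 14 bases before it (chr5:120907526-120907570, minus strand), and those of Ifit1 104 and 85 bases before it (chr19:34640760-34640838, plus strand). The Cxcl10 match lies 213 bases before the start (chr5:92349068-92349127, minus strand) and that of Gbp2 59 bases (chr3:142620579-142620638, plus strand). The GAS core of Irf1 begins 90 bases before the start (chr11:53769899-53769957, plus strand) and that of Psmb8 97 bases (chr17:34198073-34198131, plus strand).
Isg15: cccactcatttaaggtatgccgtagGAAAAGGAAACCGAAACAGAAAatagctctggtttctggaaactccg
Oas1a: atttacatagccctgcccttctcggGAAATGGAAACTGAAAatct
Ifit1: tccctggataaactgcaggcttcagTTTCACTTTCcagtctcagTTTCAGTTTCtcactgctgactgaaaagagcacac
Cxcl10: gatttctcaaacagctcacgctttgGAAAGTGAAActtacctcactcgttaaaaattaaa
Gbp2: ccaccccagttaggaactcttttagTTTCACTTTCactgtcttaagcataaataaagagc
Irf1: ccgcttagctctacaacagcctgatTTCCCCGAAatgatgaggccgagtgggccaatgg
Psmb8: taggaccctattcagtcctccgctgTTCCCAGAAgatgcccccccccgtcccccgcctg

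The first comparison asks how these genes differ between NIC tumours and normal gland. The genes raised most in the NIC pools were Irf7 (15.6-fold), Isg15 (8.85-fold) and Ifi44 (7.79-fold), while the T-cell attracting chemokine Cxcl9 was 7.35-fold lower. Of the 38 genes 11 were higher, 4 were lower and 23 did not pass the test (limma, adjusted p under 0.05 over all 28919 genes, 2 samples against 2). Over all genes 8.79% were higher and 9.8% lower. The median log2 difference was 0.60 over the 38 genes and −0.06 over all genes. When either NIC pool was left out, limma called 0 of the 28919 genes, with 6400 and 6977 at an unadjusted p under 0.05. When all 9 samples shared 1 estimate of the spread, 4 of the 38 genes were higher (Irf7, Irf9, Oas1a and Ifi44) and none lower. That fit called 14.8% of all genes higher and 21.1% lower. At an unadjusted p under 0.05 it gave 7 of the 38 higher and 0 lower, beside 13422 of all 28919 genes in either direction.

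The second comparison sets the 5 KI tumours against the same 2 normal glands. Here too Irf7 (16.5-fold), Isg15 (11-fold), Oas2 (10.6-fold) and Ifi44 (9.78-fold) were higher, and so was the peptide transporter gene Tap1 (4.71-fold). Of the 38 genes 10 were higher and 0 lower, against 17.8% higher and 24.9% lower over all genes. At an unadjusted p under 0.05 limma gave 16 of the 38 higher and 0 lower, beside 14797 of all 28919 genes in either direction. The median log2 difference was 1.10 over the 38 genes and −0.03 over all genes. Both comparisons use the same normal glands and so share whatever is particular to those samples. Without normal gland 1 the median log2 difference over the 38 genes was 1.17, and without normal gland 2 it was 0.92. Either fit rests on 1 gland, and fewer genes passed, of the 38 as of all genes. Without KI tumour 3 the count of higher genes was 17, beside 16.3% of all genes. The median log2 difference over the 38 genes was then smaller, at 0.71.

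**Figure D1:**
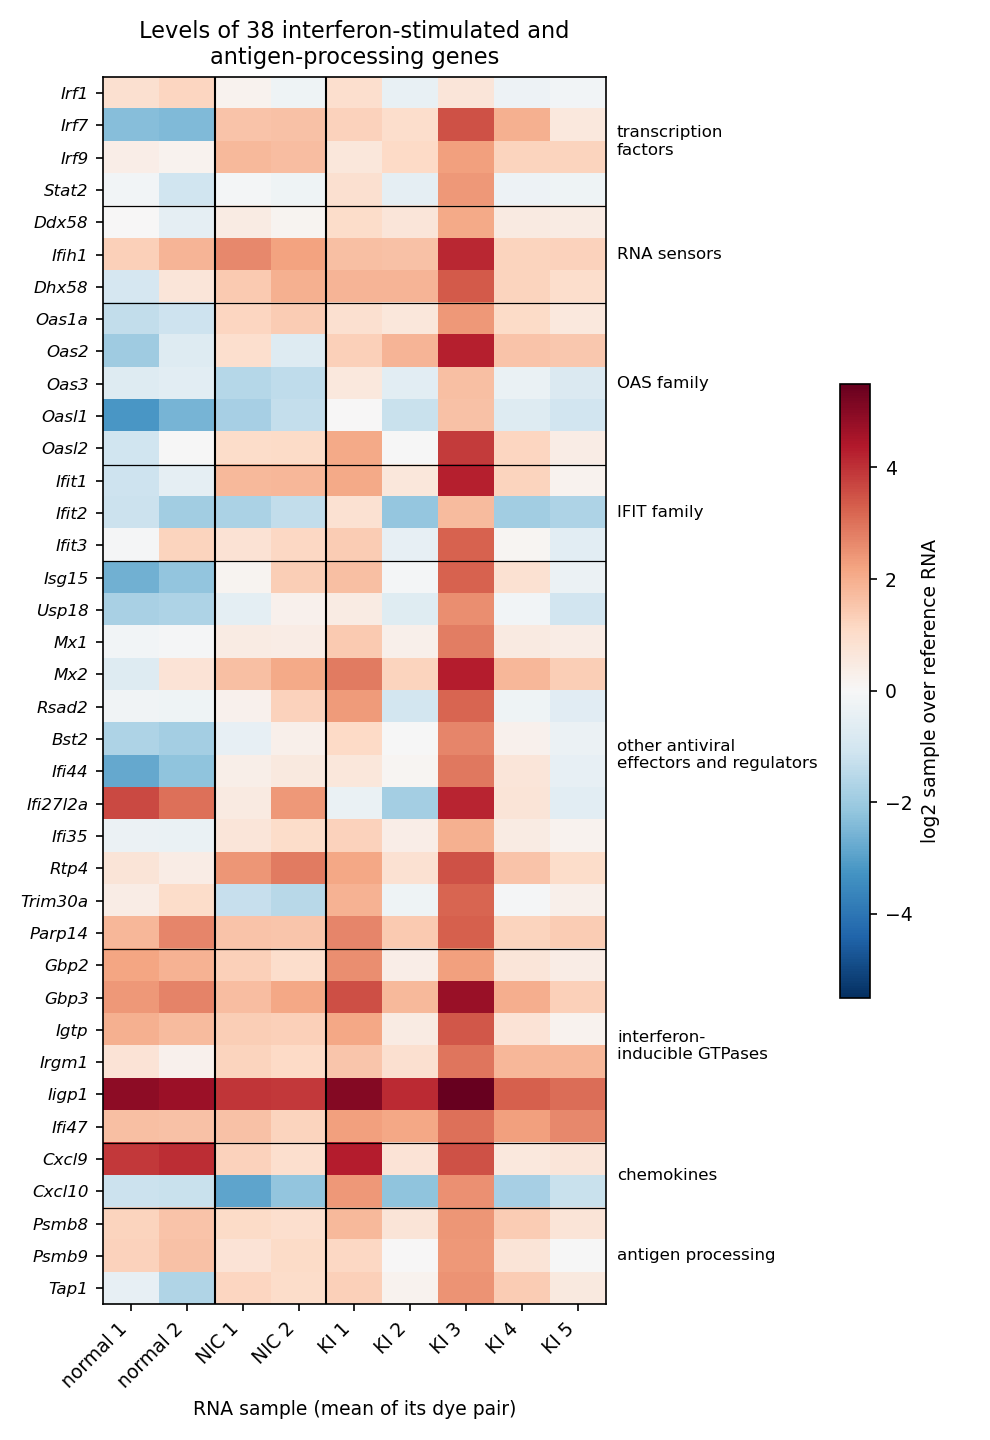
Log2 level of sample over reference RNA for the 38 genes (rows, grouped by role) in the 9 RNA samples (columns, each the mean of a dye pair). Irf7, Isg15 and Ifi44 go from below 0 in both normal glands to above 0 in both NIC pools, and the column of KI tumour 3 is the highest of the 9 samples for 35 of the 38 genes.

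Among the transcription factors, Irf7 and Irf9 were higher in NIC pools. Irf7 is the factor that amplifies type I interferon production. Its level was −2.35 and −2.42 in the normal glands, 1.56 and 1.60 in the NIC pools, and 1.27, 0.97, 3.52, 1.93 and 0.59 in KI tumours 1 to 5. All 7 tumour samples lay above both glands, by a log2 difference of 3.97 ± 0.10 (standard error, adjusted p = 0.00775) for NIC and 4.04 ± 0.71 (adjusted p = 0.00356) for KI. Irf9, the DNA-binding part of the type I complex, stood at 0.38 and 0.20 in gland, 1.77 and 1.68 in NIC, and 0.62, 1.11, 2.25, 1.22 and 1.20 in KI. It rose in NIC by 1.43 ± 0.12 (adjusted p = 0.0134), and in KI the difference of 0.99 ± 0.37 was not called (adjusted p = 0.066). A dimmer Irf9 probe gave 2.70 and 1.53. Stat2, its partner, passed in neither comparison (0.45 ± 0.37 and 1.07 ± 0.77). Irf1, a factor that interferon gamma induces, read 0.88 and 1.17 in gland, 0.19 and −0.23 in NIC, and 0.93, −0.43, 0.67, −0.30 and −0.16 in KI. It was not called in either comparison. Irf1 has a second, dimmer probe that lay on the other side of 0 (1.14 for NIC and 1.09 for KI, against −1.05 and −0.88 for the probe used).

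The RNA sensors Ddx58 (RIG-I), Ifih1 (MDA5) and Dhx58 (LGP2) detect viral RNA in the cytoplasm. None of the 3 passed in NIC by limma (1 at an unadjusted p under 0.05), where their log2 differences were between 0.51 and 1.81, with both pools above both glands. Dhx58 rose in KI tumours by 1.99 ± 0.68 (adjusted p = 0.048), from −0.92 and 0.67 in gland to 1.89, 1.88, 3.37, 1.22 and 0.97. This call rests on 1 probe: a dimmer Dhx58 probe gave 0.14 for KI and 0.21 for NIC, and 8 of 19 alternative settings lost the call. Ddx58 (1.16 ± 0.43) and Ifih1 (0.38 ± 0.78) did not pass in KI by the brightest probe. Dimmer probes gave 2.64, 2.77 and 0.32 for Ddx58 and 1.88 for Ifih1. The normal glands themselves were 1.59 apart for Dhx58, the widest gap between the glands among the 38 genes.

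The OAS enzymes make a short RNA-like messenger that starts RNA decay in infected cells. Oas1a read −1.34 and −1.12 in gland, 1.19 and 1.38 in NIC, and 0.87, 0.64, 2.38, 1.03 and 0.59 in KI. Glands and tumours did not overlap, with a difference of 2.52 ± 0.14 (adjusted p = 0.00946) for NIC and 2.34 ± 0.46 (adjusted p = 0.00568) for KI. The Oas1 genes are near-identical copies, so the probe may also read neighbours of Oas1a. Oas2 stood at −1.93 and −0.71 in gland, 0.93 and −0.70 in NIC, and 1.30, 1.85, 4.26, 1.57 and 1.48 in KI. It rose in KI by 3.41 ± 0.87 (adjusted p = 0.0169), with all 5 tumours above all 4 other samples, while a dimmer Oas2 probe gave 0.83. Oasl1, which restrains Irf7 translation, rose in KI by 2.60 ± 0.73 (adjusted p = 0.0246), from −3.20 and −2.55 in gland to 0.01, −1.20, 1.62, −0.73 and −1.06. It missed the threshold in NIC (1.30 ± 0.32, adjusted p = 0.0737), as did its relative Oasl2 (1.59 ± 0.40, adjusted p = 0.0745). Oas3 fell in NIC by 0.84 on the log2 scale (standard error 0.12, adjusted p = 0.0287) from −0.72 and −0.58 to −1.56 and −1.42, with KI tumours at 0.59, −0.59, 1.66, −0.37 and −0.81. This call rests on 1 probe: the other Oas3 probe gave 1.97 in the opposite direction, and the mean of both gave 0.56.

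The IFIT proteins bind foreign RNA and block its translation. Ifit1 read −1.15 and −0.48 in gland, 1.80 and 1.82 in NIC, and 2.07, 0.63, 4.29, 1.21 and 0.20 in KI. It rose in NIC by 2.63 ± 0.27 (adjusted p = 0.0182), and all 5 KI tumours also lay above both glands without passing the test (2.50 ± 1.002, adjusted p = 0.0809). Ifit2 (0.01 and 0.93) and Ifit3 (0.40 and 0.16) passed in neither comparison, and with either rescaling of the columns the NIC difference of Ifit2 was below 0. Ifit3 has a near-identical copy, Ifit3b, so the source of its signal is uncertain.

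Of the 12 other antiviral effectors and regulators measured, 7 rose (58.3%) and 1 fell (8.33%) in NIC, beside 8.79% and 9.8% of all genes. In KI 3 rose (25%), beside 17.8% of all genes. Isg15, a ubiquitin-like protein joined to other proteins, stood at −2.63 and −2.17 in gland, 0.15 and 1.34 in NIC, and 1.66, −0.12, 3.25, 0.82 and −0.33 in KI. Every tumour sample lay above both glands (NIC 3.15 ± 0.48, adjusted p = 0.0329; KI 3.46 ± 0.94, adjusted p = 0.021). Usp18, which removes Isg15 and damps receptor signalling, read −1.80 and −1.68 in gland, −0.55 and 0.25 in NIC, and 0.44, −0.66, 2.55, −0.17 and −1.06 in KI. It rose in NIC by 1.59 ± 0.31 at the edge of the threshold (adjusted p = 0.0497). Ifi44, an interferon-induced gene, went from −2.80 and −2.23 in gland to 0.33 and 0.55 in NIC and 0.64, 0.10, 2.91, 0.66 and −0.45 in KI. Its differences were 2.96 ± 0.25 (adjusted p = 0.0137) and 3.29 ± 0.80 (adjusted p = 0.0135), and 1.73 and 2.43 by a dimmer probe. Bst2 (tetherin), which holds budding virus at the cell surface, read −1.71 and −1.89 in gland, −0.46 and 0.27 in NIC, and 1.09, −0.02, 2.68, 0.24 and −0.30 in KI. It rose by 1.70 ± 0.29 (adjusted p = 0.0404) in NIC and 2.53 ± 0.76 (adjusted p = 0.0303) in KI.

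Rtp4, Ifi35 and Mx1 were called higher in NIC and not in KI, and the difference between the tumour models was not called for any of them. Rtp4 read 0.72 and 0.42 in gland, 2.43 and 2.84 in NIC, and 2.13, 0.82, 3.52, 1.59 and 1.0003 in KI (NIC 2.06 ± 0.21, adjusted p = 0.0183). Ifi35 read −0.33 and −0.37 in gland, 0.68 and 1.02 in NIC, and 1.26, 0.36, 1.96, 0.44 and 0.19 in KI (NIC 1.20 ± 0.15, adjusted p = 0.025). Mx1, a dynamin-like antiviral GTPase, read −0.15 and −0.07 in gland, 0.46 and 0.39 in NIC, and 1.45, 0.27, 2.80, 0.51 and 0.39 in KI (NIC 0.53 ± 0.10, adjusted p = 0.0464, and 0.22 by a dimmer probe). For all 3 genes every KI tumour lay above both glands too. Mx2, Rsad2 (viperin) and the ADP-ribosyltransferase gene Parp14 were called in neither comparison. Mx2 differed from gland by 1.87 ± 0.56 in NIC and 2.31 ± 0.86 in KI, and Rsad2 by 0.98 ± 0.40 and 0.97 ± 1.19. Parp14 read lower (−0.71 ± 0.32 and −0.26 ± 0.60), and higher in both once columns were scaled to 1 spread. Trim30a, which restrains inflammatory signalling, fell in NIC (−2.12 ± 0.27, adjusted p = 0.0246), from 0.39 and 1.03 in gland to −1.29 and −1.54, while KI tumours stood at 1.90, −0.22, 3.19, −0.08 and 0.28. A dimmer Trim30a probe gave 0.37 for NIC, so that this call too rests on 1 probe.

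Ifi27l2a encodes a small interferon-induced protein. Its level was 3.61 and 3.02 in gland, 0.48 and 2.39 in NIC, and −0.35, −1.88, 4.20, 0.70 and −0.58 in KI. Both pools and 4 of the 5 KI tumours lay below both glands, and KI tumour 3 lay above them. The difference was not called for NIC (−1.88 ± 0.75, adjusted p = 0.161) or for KI (−2.90 ± 1.48, adjusted p = 0.153). Without KI tumour 3 it fell in KI (−3.85 ± 0.79, adjusted p = 0.0108). The dimmer Ifi27l2a probes gave −2.50 and −1.57 for NIC, and −3.61 and −2.72 for KI.

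The interferon-inducible GTPases, which attack the vacuoles of intracellular microbes, held no gene called higher in NIC (by limma 1 of 6, Irgm1, at an unadjusted p under 0.05). Iigp1 fell by 0.92 on the log2 scale (standard error 0.12, adjusted p = 0.025), from 4.92 and 4.72 in gland to 3.91 and 3.90, with KI tumours at 5.04, 4.09, 5.49, 3.28 and 3.08. Gbp2, Gbp3, Igtp and Ifi47 also read lower in NIC than in gland, by log2 differences of −0.90 to −0.23, and Irgm1 higher, without being called. With all array columns scaled to 1 spread, Iigp1 was instead higher in NIC (0.88, adjusted p = 0.011), and Gbp3, Igtp and Ifi47 also changed sign. The sign of part of this family against gland therefore depends on that scaling, for KI as well, where Gbp2, Igtp and Iigp1 turned from lower to higher. Quantile scaling left the count of genes reading higher unchanged, at 1 of 6 in NIC and 3 of 6 in KI. Ifi47 was called higher in KI (0.83 ± 0.25, adjusted p = 0.0321), at 1.66 and 1.61 in gland, 1.60 and 1.22 in NIC and 2.27, 2.11, 3.05, 2.25 and 2.64 in KI.

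Both chemokine genes encode ligands of Cxcr3, the receptor that draws activated T and NK cells. Cxcl9 read 3.90 and 4.04 in gland, 1.25 and 0.94 in NIC, and 4.31, 0.76, 3.52, 0.60 and 0.67 in KI. It fell in NIC (−2.88 ± 0.16, adjusted p = 0.00914). Tumours 1 and 3 were at the height of the glands and the other 3 below both NIC pools, and the KI difference was not called (−1.997 ± 1.10, adjusted p = 0.184). Cxcl10 stood at −1.20 and −1.21 in gland, −2.91 and −2.15 in NIC, and 2.40, −2.21, 2.50, −1.81 and −1.23 in KI. It too was high in KI tumours 1 and 3 and below both glands in the rest. It was called in neither comparison.

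Beside these lower values in NIC, some markers of leukocytes were lower and some of macrophages higher. Of 3 pan-leukocyte genes 2 fell (Ptprc −3.18 ± 0.47, adjusted p = 0.031; Coro1a −1.92 ± 0.18, adjusted p = 0.0157), of 8 T cell genes 3 fell, of 5 B cell genes 2, and of 7 NK cell genes 2 fell and 1 rose. Of 8 macrophage genes 2 rose, the complement genes C1qa (2.03 ± 0.14, adjusted p = 0.0114) and C1qb (1.89 ± 0.17, adjusted p = 0.0145), and 1 fell. Over the 8 macrophage genes 3 read higher and 5 lower in NIC, with a median log2 difference of −0.38. The median level of the list was nonetheless 1.25 and 1.54 in gland and 2.12 and 1.88 in NIC. The median level of the T cell list was 0.32 and −0.53 in gland, −1.42 and −1.43 in NIC, and −1.22 to −0.64 in KI. That of the pan-leukocyte list was 0.08 and −0.46, −2.11 and −1.95, and −1.62 to −0.31. The NK cell receptor gene Ncr1 lay between 0.04 and 0.17 in all 9 samples, at the level of the reference. Among 8 epithelial genes 5 rose in NIC and 7 in KI, and of 7 adipocyte genes 5 fell in both. Of 5 fibroblast genes 4 fell in both, and of 6 endothelial genes 4 fell in NIC and 2 in KI. Of 6 dendritic cell genes 1 fell in NIC and 4 in KI. In KI, 6 T cell genes fell and 1 rose, and 5 NK cell and 4 B cell genes fell. The part of these cells in the differences above was not tested.

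Antigen processing is represented by the immunoproteasome subunits Psmb8 and Psmb9 and by Tap1, a subunit of the pump that loads peptides for class I. Tap1 read −0.46 and −1.65 in gland, 1.19 and 0.99 in NIC, and 1.30, 0.18, 2.47, 1.40 and 0.54 in KI. It rose in KI by 2.24 ± 0.60 (adjusted p = 0.0208), and missed the threshold in NIC (2.15 ± 0.46, adjusted p = 0.0566) although both pools lay above both glands. Psmb8 and Psmb9 were called in neither comparison, with log2 differences of −0.42 and −0.55 for NIC and 0.01 and −0.60 for KI. In NIC, Psmb8 turned positive (0.07) when columns were scaled to 1 spread.

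**Figure D2:**
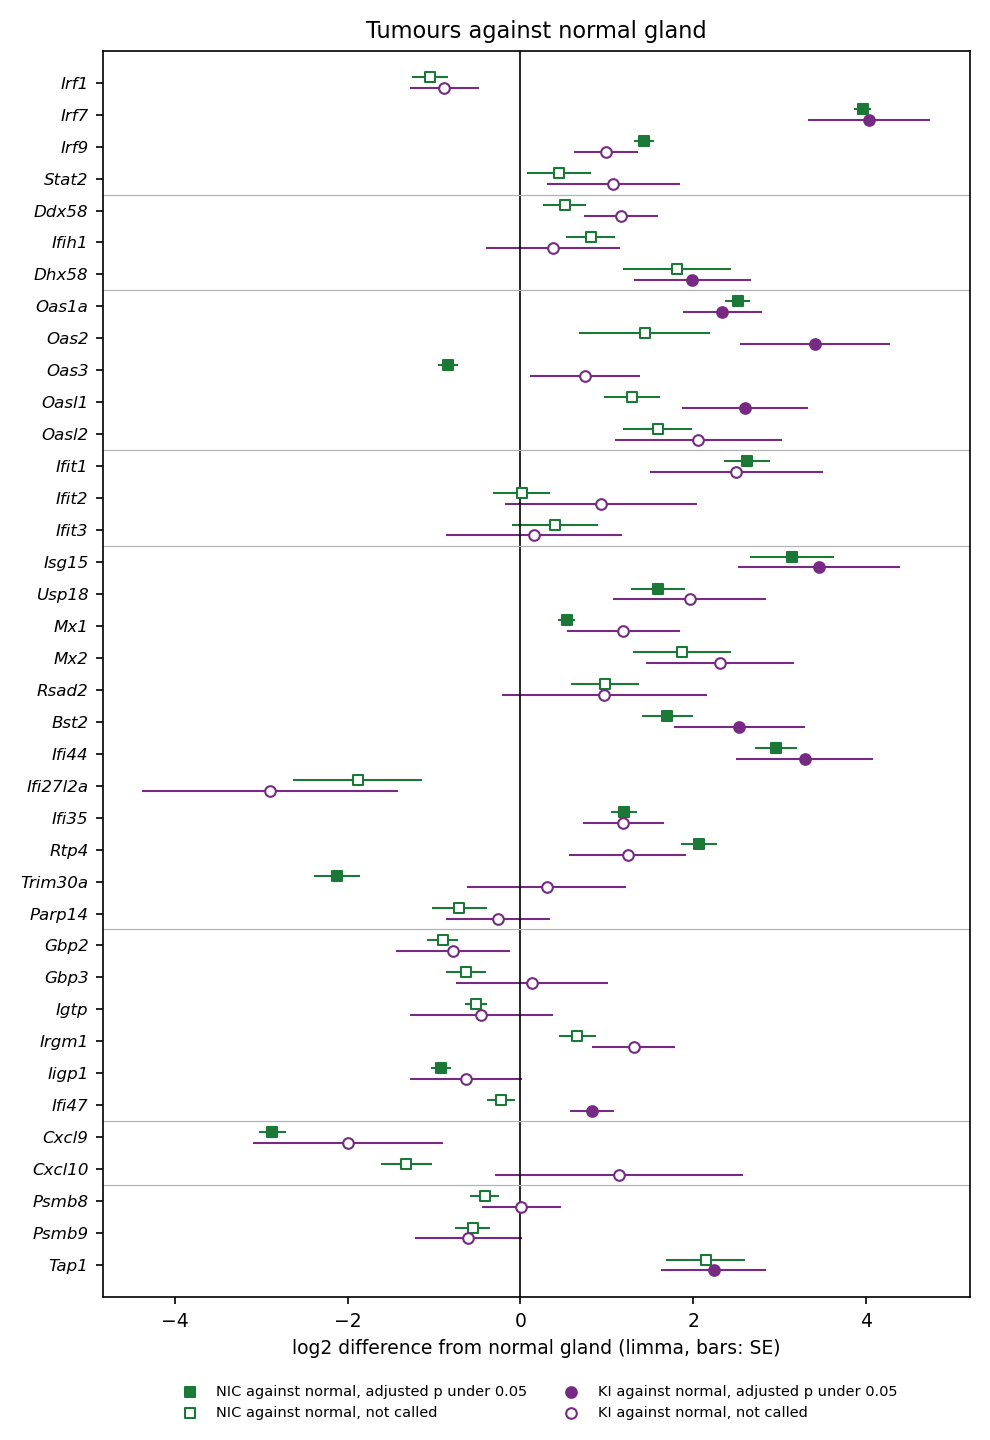
Log2 difference from normal gland for each of the 38 genes, NIC pools as squares and KI tumours as circles, with bars of 1 standard error from limma and filled symbols where the adjusted p was under 0.05. Bars for KI are mostly longer than those for NIC, and Irf7 lies near 4 in both.

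Of the 10 genes called in KI, Irf7 and Oas1a passed under every one of the 19 alternative settings that were run. The other 8 missed the threshold in between 1 and 8 of them. In NIC, Irf7, Irf9 and Oas1a passed in all 9 alternatives that left out no sample, and no other gene called there passed in all of its own. Among the others Ifi44 passed in 8 of the 9, while Isg15, Bst2 and Usp18 passed in 5 of the 9. Mx1 passed in 3 of the 8 run for it.

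The single KI tumours differed far more from one another in these genes than in most others. KI tumour 3 had the highest level of the 5 for 35 of the 38 genes (92.1%), while it was highest for 24.8% of all genes. It was also the highest of all 9 samples for the same 35. The remaining 3 were Cxcl9, Gbp2 and Irf1, all highest in KI tumour 1 among the KI tumours. KI tumour 2 was lowest for 17 genes and KI tumour 5 for 16. The median level of the 38 genes was 1.49, 0.38, 3.005, 0.73 and 0.39 in KI tumours 1 to 5, −0.15 and 0.08 in the glands, and 0.96 and 1.05 in the NIC pools. This is a description of single tumours, without a test.

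The standard deviation over the 5 tumours had a median of 1.18 for these genes and 0.154 for all genes. For all 38 the range over tumours was wider than the largest difference within any dye pair, which held for 52.9% of all genes. KI tumour 3 stood above the median of the other 4 by 2.53 log2 units in the median gene, while over all genes the median was 0.02. The lead ran from 0.79 for Ifi47 to 4.67 for Ifi27l2a (25.4-fold). It was 16.2-fold for Cxcl10, 12.4-fold for Rsad2, 10.3-fold for Ifit1 and 7.46-fold for Isg15. It was at least 1 log2 unit for 36 genes, against 2.48% of all genes. For 27 genes tumour 3 was at least 1 above every other KI tumour, against 0.685% of all genes.

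The lead of KI tumour 3 held for either dye and for each source of values. That tumour was highest for 35 genes on the Cy3 arrays alone, on the Cy5 arrays alone, in the scanner intensities after normexp and loess, and in the scanner software's own ratio. The tumour most often lowest was not settled: KI tumour 5 was lowest for 18 genes and KI tumour 2 for 15 on the Cy3 arrays, and for 18 and 16 on the Cy5 arrays. The scanner images of 2 KI arrays were turned into spot values on a day of their own: the Cy5 array of tumour 3 and the Cy3 array of tumour 2. The Cy3 arrays alone leave the former out.

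**Figure D3:**
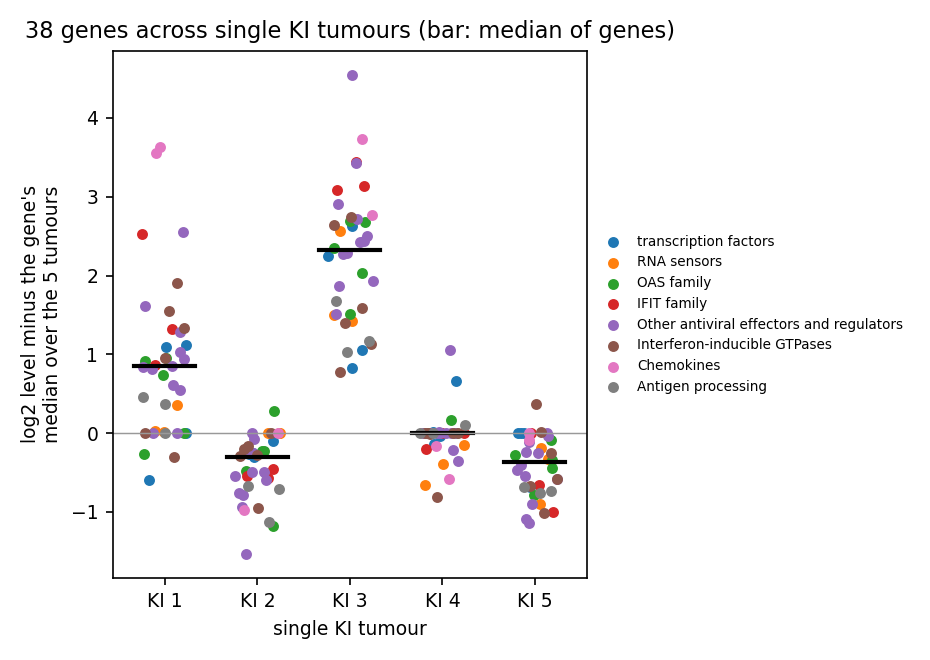
Log2 level of each of the 38 genes in the 5 single KI tumours after the gene's median over those tumours is subtracted, coloured by role, with a black bar at the median of the genes. The bar lies at 2.32 for tumour 3, at 0.85 for tumour 1, and at −0.30, 0 and −0.37 for tumours 2, 4 and 5.

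A smaller group of genes was shared by KI tumours 1 and 3. These were the 2 highest tumours for 29 of the 38 genes, against 14% of all genes. For 12 of them both lay at least 1 log2 unit above tumours 2, 4 and 5, which held for 0.356% of all genes. The gap was over 2 for Cxcl10 (3.63), Cxcl9 (2.76), Rsad2 (2.55) and Ifit2 (2.53). In Ifit2, tumours 1 and 3 read 0.84 and 1.76 and the others −2.14, −1.89 and −1.69. In Rsad2 they read 2.33 and 3.21 and the others −1.004, −0.22 and −0.62. For Oas2, Ifih1, Ifi44 and Ifi27l2a, by contrast, tumour 3 alone stood apart from the other KI tumours, although Oas2 and Ifi44 lay above both glands in all 5. Ifih1 stood at 4.17 in tumour 3 and between 1.21 and 1.64 in the other 4. This split was noticed after the values were seen.

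The gene of interferon beta, Ifnb1, followed the same tumour. From a list of 5 interferon genes it was singled out after its values were seen. It read 2.73 in KI tumour 3 and between −0.09 and 0.12 in the other 8 samples. Both dyes gave it (2.58 on the Cy3 array and 2.87 on the Cy5 array). The probe is dim: its raw mean signal in the sample channel was 300.2 and 428 in tumour 3 and 110.8 to 194.9 on the other 8 KI arrays, all marked well above background by the scanner software. Ifng, the interferon gamma gene, read −0.03 in tumour 3 and 0.17 in tumour 1, within the −0.04 to 0.20 of the KI tumours as a whole. Ifna4 lay between −0.01 and 0.15 in KI.

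**Figure D4:**
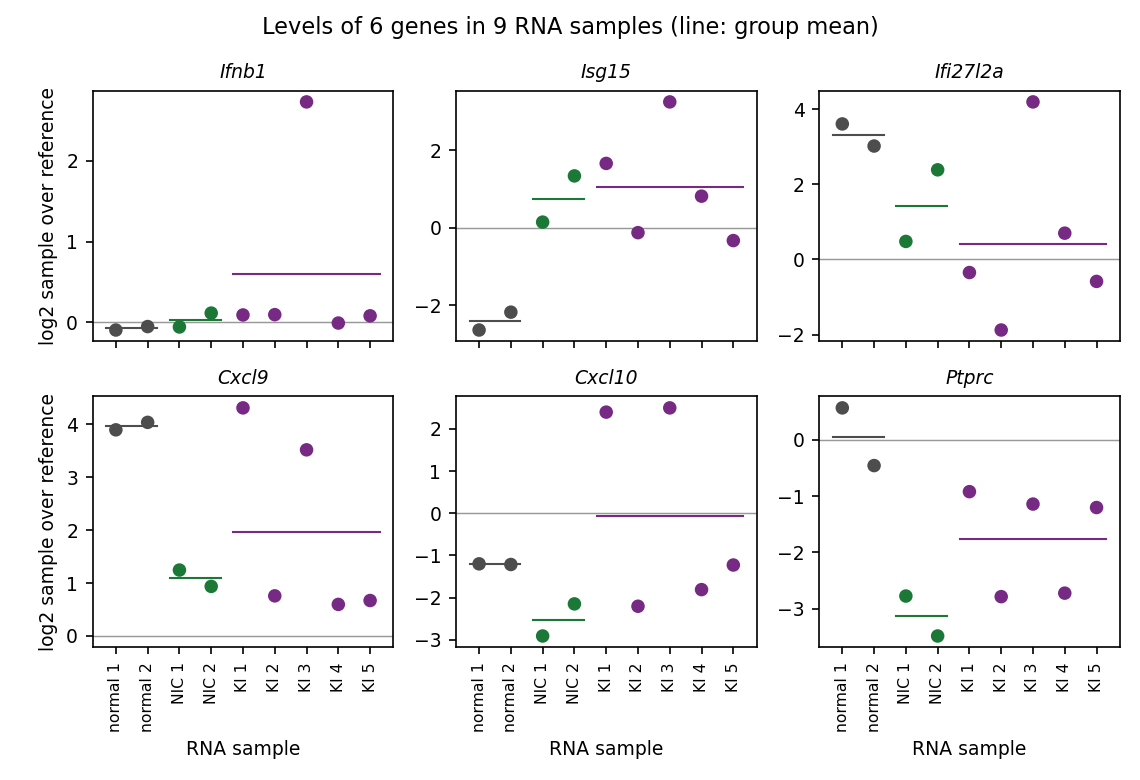
Log2 level of sample over reference RNA in each of the 9 RNA samples for Ifnb1, Isg15, Ifi27l2a, Cxcl9, Cxcl10 and the leukocyte gene Ptprc, with a line at each group mean. Ifnb1 stands out in KI tumour 3 alone at 2.73, Cxcl9 and Cxcl10 are high in KI tumours 1 and 3, and Ptprc is near −1 in KI tumours 1, 3 and 5.

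Markers of other cells moved in part with these tumours. The pan-leukocyte list had median levels of −0.31, −1.51, −0.58, −1.62 and −0.51 in KI tumours 1 to 5, so that tumour 5 was close to tumours 1 and 3 in these markers but not in Cxcl10. T cell markers read −0.87, −1.22, −0.64, −0.99 and −1.11, and macrophage markers 2.63, 1.39, 2.55, 2.04 and 2.58. The epithelial list was highest in tumour 3 as well (2.46, 2.29, 2.93, 2.67 and 2.70). Fibroblast markers (0.75, −1.23, 0.50, 0.50 and 0.50) and endothelial markers (1.84, 0.94, 2.21, 1.82 and 2.30) were lowest in tumour 2. Dendritic cell markers read 0.11, 0.09, 0.12, −0.06 and 0.11. The part of these cells in the order of the tumours was not tested.

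The third comparison sets the KI tumours against the NIC pools. Of the 38 genes 0 were higher and 0 lower, against 2.92% and 3.28% of all genes. At an unadjusted p under 0.05 limma gave 3 higher (Oas3, Trim30a and Ifi47) and 0 lower, beside 6409 of all 28919 genes in either direction. Ifi47 came nearest, at 1.05 ± 0.25 (adjusted p = 0.0534), and every KI tumour lay above both pools. The largest log2 differences were 2.46 ± 1.43 for Cxcl10, 2.42 ± 0.92 for Trim30a and 1.97 ± 0.87 for Oas2, and the lowest −1.02 ± 1.48 for Ifi27l2a, −0.82 ± 0.67 for Rtp4 and −0.45 ± 0.37 for Irf9. For Oas3 and Trim30a the second probe gave −0.29 and 0.37, where the probe used gave 1.59 and 2.42. The median over the 38 genes was 0.35, and −0.09 without KI tumour 3. Without it Ifi47 was the 1 gene called (0.91 ± 0.17, adjusted p = 0.0373). Single tumours and pools share 1 estimate of the spread here, although a pool averages over its tumours, and a difference that misses the threshold at this spread is not shown to be absent.

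Of 52 other genes of interferon signalling and antigen presentation 50 were measured, and Psme2 and Nlrc5 were not found. Against gland 3 rose (6%) and 5 fell (10%) in NIC, beside 8.79% and 9.8% of all genes. In KI 9 rose (18%) and 3 fell (6%), beside 17.8% and 24.9%, so the shares that rose were near or below the background. The median log2 differences were 0.05 and 0.09. Stat3 rose in both (1.96 ± 0.30, adjusted p = 0.0327; 1.61 ± 0.21, adjusted p = 0.00111), as did the DNA sensor gene Cgas (1.08 ± 0.15, adjusted p = 0.0275; 1.08 ± 0.32, adjusted p = 0.0292). The third gene to rise in NIC was the phosphatase gene Ptpn2. Irf8, a factor of myeloid and B cells, fell in NIC (−2.03 ± 0.10, adjusted p = 0.00828), as did Ifngr1, Cd74, Irf5 and Ifnk. In KI the kinase gene Tyk2 rose by 1.70 ± 0.23 (adjusted p = 0.00119) and the RNA sensor gene Tlr3 by 1.95 ± 0.43 (adjusted p = 0.00899). Tap2, the partner of Tap1, rose by 1.47 ± 0.38 (adjusted p = 0.0182), and Ifnar1, Ifngr2, Pias1 and Calr were called higher as well. Ifng, Ifna4 and Ifnk fell in KI. Against NIC, KI tumours were higher in Sting1 alone of the 50 (1.56 ± 0.34, adjusted p = 0.0418), and without KI tumour 3 this was not called (1.63 ± 0.37, adjusted p = 0.0625).

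Within the KI tumours the class I genes of that list followed tumour 3, where all 9 measured had their highest level, among them B2m at 1.07 against −0.16 to 0.27 in the other 4. Of the 11 genes of upstream sensors 9 were also highest in tumour 3, with a clear lead in Zbp1, Eif2ak2 and Adar. For others the lead was slight, as for Tlr9 (0.29 against 0.27 in tumour 5) and Myd88 (0.49 against 0.47 in tumour 5). Of the 8 class II genes, 6 were highest in tumour 1 and 2 in tumour 3. The median class II level was 2.29, 0.40, 2.08, 0.56 and 1.46 in tumours 1 to 5.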

How the data were processed

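Gene expression was measured on 18 two-colour Agilent arrays, a dye pair for each of 9 RNA samples. Per the labels, RNA was amplified in 1 linear round and coupled to Cy3 or Cy5. The authors deposited a log2 value of sample against reference for each spot of each array. The submitters' processing notes name RMA, and nothing read here describes the other steps. Per the file headers, the scanner files of the 10 KI arrays (Agilent Feature Extraction A.7.5.1) hold spot intensity values and a log10 ratio of the dyes. KI columns followed their scanner values at r = 0.982 to 0.988. Direction and spot layout of the normal and NIC columns were checked on 492 Cy3-only control spots, whose medians were −4.36 to −3.92 on arrays with the sample in Cy5 and 3.59 to 4.12 with it in Cy3, as on KI arrays (−4.12 to −3.34 and 3.52 to 4.72). For some KI arrays the protocol text and the label field disagree on the dye, and the label field was followed. Column SDs were 0.726 to 0.858 for KI and 0.91 to 1.18 for the others.

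Control spots (2256) were left out. Of 41174 probes, 20716 were named by accession, 5039 by symbol and 5279 by older symbol through RefSeq (GRCm38.p6), and 10140 kept the file's name. The brightest probe on the KI arrays stands for a gene. Some genes carry older names in the files, such as G1p2 (Isg15) and Isgf3g (Irf9), and the Gbp3 probe is named Gbp4 there. All 38 probes were well above background in the sample channel on all 10 KI arrays, and none was saturated. Of 16 genes with several probes, these differed by over 1 log2 unit for 10 (NIC against normal), 5 (KI against normal) and 4 (KI against NIC), and some probe had the other sign for 4, 3 and 5.

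The replicate was the RNA sample. limma 3.58.1 in R 4.3.3 (lmFit, eBayes, two-sided, Benjamini-Hochberg) was fitted on 4 samples for NIC against normal and on all 9 for the KI comparisons, and tested on simulated data. Labels do not tell of litters, so a p-value here reflects only how these samples vary, and the number of arrays limits precision. Alternatives were each dye alone, all arrays with a random block, the mean of probes, quantile and spread scaling, filters on dim probes, left-out samples, other fits, and scanner values (normexp, offset 50, loess; 0.509% of spots left out as outliers). Every gene on the list is named, with levels per sample for genes called in NIC against normal and for the 3 largest differences either way in the KI comparisons. The genes, their roles, the pathway and marker lists were chosen with earlier results of these data known. The values of 1 pathway gene are not reported here. Figures used matplotlib 3.10.9.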

Additional observations from a re-analysis of the deposited data

Results flagged for a closer look

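Among the 5 KI tumours, a level was singled out where the gap between an extreme tumour and its nearest neighbour filled more than 0.71 of the whole range (Dixon's 95% value for 5 samples), which chance alone does in about 1 of 20 groups. This held for 7.12% of all genes, for 3 of the 38 interferon genes and for 3 of 50 other pathway genes. Both counts are near the share over all genes, so neither list was flagged more often than other genes. In each flagged gene of the 2 lists KI tumour 3 was highest. Oas1a stood at 2.38 in that tumour and at 0.59 to 1.03 in the others (gap over range 0.755). Oas2 stood at 4.26 against 1.30 to 1.85 (0.814), and Ifih1 at 4.17 against 1.21 to 1.64 (0.856). Ifnb1, the interferon beta gene, stood at 2.73 against −0.01 to 0.10 (0.962). The RNA-activated kinase gene Eif2ak2 stood at 2.05 against 0.74 to 1.06 (0.751), and the RNA-editing enzyme gene Adar at 1.69 against −0.08 to 0.20 (0.845).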

How the results depend on the processing

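In NIC against normal, 11 genes were higher and 4 lower, beside 8.79% and 9.8% of all genes. Cy3 arrays alone gave 3 and 2, beside 3.39% and 3.69% of all genes. All arrays with a random block gave 19 and 7, beside 14.8% and 19.8%. All 9 samples in 1 fit gave 4 and 0, beside 14.8% and 21.1%. Leaving out 1 sample left 1 in its group, and the median log2 difference over the 38 genes was then 0.58 to 0.80. Iigp1 turned positive (0.88) with columns scaled to 1 spread, and Oas3 (0.56) with the mean of its probes. In KI against normal, 10 were higher and 0 lower, beside 17.8% and 24.9% of all genes. A random block gave 20 and 3 (Cxcl9, Ifi27l2a and Irf1), beside 20.6% and 26.1%. Scaling to 1 spread gave 6 higher, beside 10.2%, and normexp with loess gave 1 lower (Cxcl9), beside 26.7%. Leaving out 1 KI tumour gave 9 to 17 higher and 0 to 1 lower (Irf1 without KI tumour 1, Ifi27l2a without KI tumour 3). The shares over all genes were then 15% to 17.9% and 21.7% to 23.9%. With 1 gland left out, fewer of the 38 genes were called. In KI against NIC, 0 were higher or lower, beside 2.92% and 3.28% of all genes. A random block gave 4 higher (Ifi47, Oas2, Oas3 and Trim30a), beside 6.43%. Cy5 arrays alone, quantile scaling, scaling to 1 spread, the upper 50% of signal, and leaving out the smaller day of image extraction gave 1 each (Ifi47). The share higher over all genes tested was 1.12% to 3.21% in those settings. Leaving out 1 sample gave 0 to 1 higher (Ifi47). The fit with a random block takes each array as an observation, with dye partners of 1 RNA sample correlated. The left-out fits have fewer samples. Why the counts differ between settings was not tested. No paired analysis was possible because the labels give the groups no shared replicate numbers.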
